A study of Homo sapiens with 10 samples.

Results

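VEGFA-LNC and VEGFC-LNC are long noncoding RNAs transcribed near the genes of the endothelial growth factors *VEGFA* and *VEGFC*, and each was removed by CRISPR/Cas9 deletion of its promoter in EA.hy926 cells. The comparison set the 3 VEGFA-LNC deletion clones directly against the 3 VEGFC-LNC deletion clones, 6 of the 10 RNA-Seq libraries of the series. EA.hy926 is an established human line made by fusing umbilical vein endothelial cells with the lung carcinoma line A549, and each library of a deletion came from a clonal line that was homozygous for it. The other 4 libraries are controls, 2 for each deletion, from cells that were given the gRNAs but no Cas9 and were taken through the same clonal selection. They were left out of the contrast and are shown beside it, for the difference between the control libraries of the 2 sets. The labels do not say whether the controls of a set are separate clones, so that difference may be one between single clones. Every library was of rRNA-depleted total RNA, and the labels give the cells no treatment beyond the editing. Levels are FPKM, reads scaled to transcript length and to library size, and a difference is the mean of log2(FPKM + 0.1) in the VEGFA-LNC clones minus that in the VEGFC-LNC clones, so that a positive value is higher in the VEGFA-LNC clones. The added 0.1 understates the change of genes at low levels. A gene was called when its false-discovery rate (FDR) in limma's moderated test over the 13333 genes tested was under 0.05 and its level differed at least 1.5-fold.

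*VEGFA* drives the growth and permeability of blood vessels through the receptors *FLT1* and *KDR*, and *VEGFC* drives that of lymphatic vessels through *FLT4* and, once processed, *KDR*. The neuropilins *NRP1* and *NRP2* are their coreceptors, and *CCBE1* helps to process *VEGFC*. Long noncoding RNAs can act on the gene beside them or on distant genes, and a direct comparison of the 2 deletions asks which genes differ between cells that lack the *VEGFA* lncRNA and cells that lack the *VEGFC* lncRNA.

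The libraries held 6743966 to 24197616 reads, recovered from the FPKM values, and the third VEGFC-LNC clone was the shallowest. The clones differed more among themselves than the controls did. The median SD of a tested gene was 0.287 on the log2 scale between the VEGFA-LNC clones and 0.249 between the VEGFC-LNC clones, against 0.065 and 0.064 between the 2 controls of a set. The first VEGFA-LNC clone stood apart. It correlated with the other two at 0.911 and 0.934 over the tested genes and with a control of the VEGFC-LNC set at 0.961, whereas the second and the third VEGFA-LNC clones correlated at 0.981. Deviations from the group means correlated at 0.55 and 0.41 between the first and between the second clones of the 2 sets. The third clones correlated at 0.22, within the range of pairs with unlike numbers (−0.54 to 0.26). A fit with the number as a block is given wherever it changed a call. Nothing in the labels says what clones with the same number share, or that the 2 controls of a set came from separate clones, so that the spread of the controls may be technical. Of the endothelial genes listed, *PECAM1* was at 13.9 to 159 FPKM and *CDH5* (VE-cadherin) at 56.6 to 312 FPKM over the 6 clones. Others were low. *CLDN5* was listed at 0 in all 6 clones, *TAL1* did not exceed 0.014 FPKM and *KDR* lay between 0.038 and 1.39 FPKM. *VWF* was at 0.65 to 8.78 FPKM. *EMCN* was at 0.022 to 1.54 FPKM in the clones, against 4.83 to 6.74 FPKM in the 4 controls. Of the keratins listed for the carcinoma parent, *KRT7* (233 to 527 FPKM), *KRT8* (95.2 to 348 FPKM) and *KRT18* (101 to 436 FPKM) were high. *KRT19* and the lung epithelial markers *EPCAM*, *CDH1*, *NKX2-1*, *SFTPB* and *SFTPC* did not exceed 0.34 FPKM, and *MUC1* was at 0.932 to 3.99 FPKM. The levels of the 2 lncRNAs themselves were not analysed here.

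*VEGFC* was higher in the VEGFA-LNC clones, and *VEGFA* did not differ beyond the spread between clones. The row of *VEGFC* (NM_005429; hg19, chromosome 4, 177604685 to 177713899) was at 11.6, 11.4 and 10.8 FPKM in the VEGFA-LNC clones and at 5.38, 4.84 and 4.63 FPKM in the VEGFC-LNC clones. The groups did not overlap. Their means were 11.3 ± 0.386 and 4.95 ± 0.388 FPKM (SD, n = 3), a log2 difference of 1.17 with a 95% confidence interval from 0.82 to 1.53 (SE 0.15, FDR 0.0432 by limma). The two-sided exact permutation test gave p = 0.1, the smallest that 3 against 3 clones allow. The controls were ordered the same way. *VEGFC* was at 16.1 and 15.97 FPKM in the VEGFA-LNC controls and at 9.47 and 10.5 FPKM in the VEGFC-LNC controls, a difference of 0.68, so that each clone lay below both controls of its own set. The difference between the clones went beyond that between the controls by 0.49 (FDR 0.187 by limma), which did not pass the threshold. Scaling the clones by the median of ratios or by the library median took the FDR of *VEGFC* to 0.0593 and 0.0594, and leaving out a single clone other than the first VEGFA-LNC clone took it to between 0.125 and 0.201.

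The row of *VEGFA* (NM_001287044; hg19, chromosome 6, 43739722 to 43754223) was at 4.68, 4.71 and 7.35 FPKM in the VEGFA-LNC clones and at 8.85, 7.83 and 5.25 FPKM in the VEGFC-LNC clones. The groups overlapped, since the third clone of each set lay on the side of the other set. The difference was −0.38 with a 95% confidence interval from −1.03 to 0.27 (SE 0.28, FDR 0.538 by limma, exact permutation p = 0.2). In the controls the order was the opposite, with 10.2 and 9.62 FPKM in the VEGFA-LNC set and 3.23 and 3.84 FPKM in the VEGFC-LNC set. Each VEGFA-LNC clone thus lay below both controls of its own set, and each VEGFC-LNC clone above both of its own. Set against the difference between the controls, the clones differed by −1.85 (FDR 0.0559 by limma), which missed the threshold.

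Of the 13 ligands, receptors and processing factors of the VEGF list, 9 were tested and 1, *VEGFC*, was called, with or without the block. The background was 0.345% of all tested genes called. The median difference of the 9 genes was −0.27, or 0.28 without the first VEGFA-LNC clone, against 0.14 for all tested genes, and 7 of them were lower in the VEGFA-LNC clones. The ligand *VEGFB* was at 15.9 to 16.9 FPKM in the VEGFA-LNC clones and at 9.82 to 13.96 FPKM in the VEGFC-LNC clones (difference 0.46, FDR 0.238). *CCBE1* had the reverse order, with 5.89 to 7.63 FPKM against 8.56 to 12.3 FPKM (difference −0.63, FDR 0.184), and so had *NRP1*, with 28.7 to 32.2 FPKM against 34.01 to 40.1 FPKM (difference −0.30, FDR 0.326). In these 3 genes the groups did not overlap, as in 24.2% of all tested genes, and the test over all genes was not passed. The levels of *PGF* (30.9, 205 and 128 FPKM in the VEGFA-LNC clones, 70.1, 139 and 145 FPKM in the VEGFC-LNC clones), *NRP2* and *FLT1* spread more within a group than between the groups.

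*VEGFC* lies in a stretch of chromosome 4 where most genes were higher in the VEGFA-LNC clones. Of the 5 other genes tested within 1 Mb of it, none was called, with a median difference of 0.15 and a range from −0.42 to 0.94. *AGA*, a lysosomal amidase, was at 5.38 to 6.92 FPKM in the VEGFA-LNC clones and at 2.23 to 4.83 FPKM in the VEGFC-LNC clones, and *SPCS3*, a signal peptidase subunit, at 28.2 to 39.6 FPKM and 17.2 to 26.3 FPKM. Both differed without overlap. Of the 37 other genes tested within 1 Mb of *VEGFA*, 27 were higher in the VEGFA-LNC clones and 8 lay wholly above, with a median of 0.20, and none was called. Over all tested genes 65.6% were higher and 18.8% lay wholly above, so that these counts are near the background.

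Over all tested genes, 46 were called between the clones (0.345%). Of these, 39 were higher in the VEGFA-LNC clones (0.293% of tested genes) and 7 higher in the VEGFC-LNC clones (0.0525%). An unadjusted p under 0.05 was found for 2319 genes. The calls depended on the model of the spread, since limma-voom on the recovered reads called 1 gene, *FAM19A2* (difference 2.77), which is among the 46, with 2296 genes at an unadjusted p under 0.05. With the clone number as a block, 222 genes were called (1.67%), 175 higher in the VEGFA-LNC clones (1.31%) and 47 higher in the VEGFC-LNC clones (0.353%), and these included all 46. Without the first VEGFA-LNC clone 409 genes were called, again including all 46, and without any other clone 5 to 18. The groups did not overlap in any of the 46 genes. Over all tested genes the VEGFA-LNC clones lay wholly above the VEGFC-LNC clones in 18.8% and wholly below them in 5.42% (24.2% in either direction), and the median difference was 0.14, so that most genes were slightly higher in the VEGFA-LNC clones. With median of ratios scaling, under which the median of all genes was 0.00, 24 genes were called higher in the VEGFA-LNC clones and 8 higher in the VEGFC-LNC clones.

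The 7 genes called higher in the VEGFC-LNC clones had a median difference of −2.99. *LINC01419*, a long intergenic noncoding RNA on chromosome 8, was at 7.56, 1.96 and 5.38 FPKM in the VEGFC-LNC clones and at 0.044, 0 and 0 FPKM in the VEGFA-LNC clones, which together held 1 read of it against 367. The ratio of reads per library size was 391, with a 95% counting interval from 69.7 to 15500. All 4 controls expressed it, at 1.46 to 2.73 FPKM. *SLCO1B3*, a transporter of organic anions best known from hepatocytes, was at 19.2, 13.7 and 9.05 FPKM in the VEGFC-LNC clones and at 0.168, 0.290 and 0.472 FPKM in the VEGFA-LNC clones, a difference of −5.10 (SE 0.38, FDR 0.00749 by limma). Its controls also lay above every VEGFA-LNC clone and had the opposite order to the clones, with 9.15 and 10.1 FPKM in the VEGFA-LNC set and 3.53 and 4.87 FPKM in the VEGFC-LNC set. *LBH*, a transcription cofactor, was at 8.93, 5.09 and 6.27 FPKM against 0.458, 0.684 and 0.529 FPKM, a difference of −3.36 (SE 0.28, FDR 0.00817). Here too the controls had the opposite order, with 2.37 and 2.61 FPKM in the VEGFA-LNC set and 0.539 and 0.296 FPKM in the VEGFC-LNC set. *SUCNR1*, the receptor for extracellular succinate, was at 10.6, 4.95 and 9.84 FPKM against 1.58, 1.56 and 1.24 FPKM, a difference of −2.39 (SE 0.32, FDR 0.0459), and its 4 controls lay at 1.36 to 2.57 FPKM, below every VEGFC-LNC clone. The metalloproteinase *ADAMTS10*, which is known for its part in fibrillin microfibrils, had a difference of −2.25 (FDR 0.0223), the kallikrein *KLK1*, which releases kinins, one of −2.99 (FDR 0.0496), and *EDDM13* one of −2.11 (FDR 0.013). In these 3 genes the controls also had the same order as the clones.

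The 39 genes called higher in the VEGFA-LNC clones had a median difference of 2.89, or 3.05 with the 5 genes without a read in any VEGFC-LNC clone at their lower bound. Most were at low levels, and 26 of the 39 had a mean under 0.5 FPKM in the VEGFC-LNC clones. *CT55*, a cancer/testis antigen encoded on the X chromosome, was at 2.59, 2.44 and 3.54 FPKM in the VEGFA-LNC clones and was listed at 0 in all 3 VEGFC-LNC clones. With 271 reads against 0, and a floor of 3 reads over the group, it was at least 84.9-fold higher. In the controls it was at 0 to 0.177 FPKM. *SGCZ* (zeta-sarcoglycan, of the muscle membrane complex) was at 5.41, 2.91 and 2.78 FPKM, with 1273 reads against 1 read in the VEGFC-LNC clones, and *MDGA2*, an adhesion protein of synapses, at 3.71, 3.597 and 2.99 FPKM against 0.051, 0.010 and 0.028 FPKM (difference 4.77, SE 0.26, FDR 0.00264 by limma). The controls of *SGCZ* lay at 0.172 to 0.313 FPKM and those of *MDGA2* at 0.181 to 0.389 FPKM. In both genes every VEGFA-LNC clone was thus above, and every VEGFC-LNC clone below, all 4 controls.

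The same holds for *GNAI1*, the inhibitory G protein subunit of adenylyl cyclase signalling, which was at 2.13, 3.39 and 3.96 FPKM in the VEGFA-LNC clones, at 0.202, 0.033 and 0.179 FPKM in the VEGFC-LNC clones and at 1.30 to 1.71 FPKM in the controls (difference 3.82, SE 0.41, FDR 0.0221 by limma). *LINC01324* and the uncharacterised *LOC100506258* were the noncoding RNAs with the largest differences among those higher in the VEGFA-LNC clones, at 3.36 to 8.78 FPKM against at most 0.064 FPKM, and at 3.69 to 6.52 FPKM against at most 0.108 FPKM. *TMEM132D-AS1* differed in another way, since its VEGFA-LNC clones (4.37 to 6.93 FPKM) were near all 4 controls (4.57 to 5.90 FPKM) and its VEGFC-LNC clones were at 0, 0.121 and 0.332 FPKM. It is antisense to *TMEM132D*, and it is not given in the sources used here whether the table was counted by strand. *TMTC1*, a mannosyltransferase of the endoplasmic reticulum, was at 1.61 to 4.10 FPKM with 1 read in all VEGFC-LNC clones. *QPRT*, an enzyme of NAD synthesis (difference 4.46, FDR 0.00764), *CAPG*, an actin-capping protein (3.85, FDR 0.0233), *PLEKHA5* (3.57, FDR 0.0221) and the chloride channel protein *CLIC2* (3.11, FDR 0.0415) followed. *CLIC2* was at 7.03, 15.3 and 8.20 FPKM in the VEGFA-LNC clones and at 0.615 to 1.39 FPKM in the VEGFC-LNC clones, with all controls between them at 1.75 to 2.80 FPKM.

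Another set of called genes differed between the controls in much the same way. *SERPINB7*, a protease inhibitor of the epidermis, was at 4.19, 2.35 and 7.70 FPKM in the VEGFA-LNC clones and at 0.115, 0 and 0.153 FPKM in the VEGFC-LNC clones (difference 4.63, FDR 0.0255). It was at 5.66 and 6.44 FPKM in the VEGFA-LNC controls and at 0.163 and 0.319 FPKM in the VEGFC-LNC controls, a difference of 4.21. The muscle ubiquitin ligase *TRIM63* differed by 3.52 between clones and by 3.17 between controls, and *LIPH*, which makes the lipid mediator lysophosphatidic acid, by 3.45 and 2.21. The tight junction protein *CLDN1* was at 8.80, 4.94 and 12.5 FPKM against 1.35, 1.40 and 1.21 FPKM in the clones (difference 2.55, FDR 0.0459), and at 8.75 and 9.22 FPKM against 1.77 and 1.55 FPKM in the controls (difference 2.37).

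Over the 46 called genes, the controls of the 2 sets differed in the same direction as the clones in 35 (76.1%), against 64.7% of all tested genes. Both VEGFA-LNC controls lay beyond both VEGFC-LNC controls on the side of the clones in 33 of the 46. The size was smaller in the controls, with a median of 0.76 for the genes called higher in the VEGFA-LNC clones. In 14 genes the difference between the controls was at least as large as 50% of that between the clones. The shares of all tested genes with such a separation or ratio were not taken, so nothing is read from the 33 and the 14. For the 7 genes called higher in the VEGFC-LNC clones, 3 had the same direction in the controls. Across all genes, the difference between the clones and that between the controls correlated at 0.38. This is a correlation across genes, which are not independent replicates. In 26 of the 46 called genes the difference between the clones also went beyond that between the controls. Of all tested genes 194 (1.46%) passed that test, but it holds the same clone difference that chose the 46, so nothing is read from the 2 shares. The 194 calls rest on controls that lay close together, and 5 to 10 genes passed when any control was left out and 0 when each pair of controls was averaged.

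**Figure D1:**
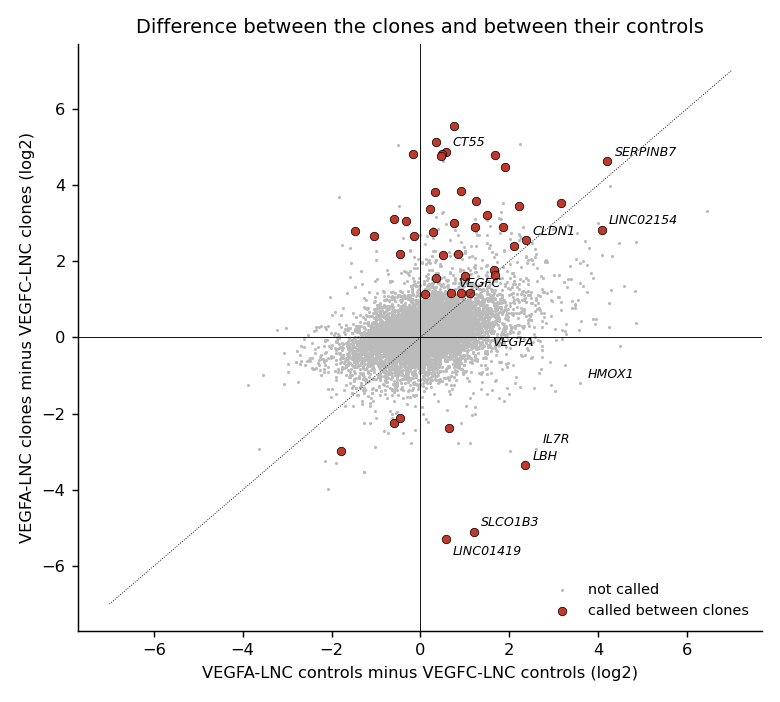
Difference between the clones (vertical) against the difference between their controls (horizontal), both log2, for the 13333 tested genes, with the 46 called genes in red and the dotted line at equal differences. Called genes such as CT55 differed far less between controls (0.57) than between clones (4.87), SERPINB7 and CLDN1 lie near the line of equal differences, and LBH, SLCO1B3, LINC01419, IL7R and HMOX1 lie on opposite sides of 0 in clones and controls.

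Genes of some chromosomes differed together. Along the genome, 335 windows of 40 tested genes were described by their median difference, and 31 of them had a median of at least 0.4. Of the 31 windows, 11 were on chromosome 16, 8 on chromosome 12, 5 on chromosome 10 and 3 on chromosome 4. The remaining 4 were on chromosomes 1, 6 and 8. Segments were then set from these windows, after their values were seen, and are described without a test. Their medians and their shares of genes wholly above follow in part from that choice. On chromosome 16 the median difference of 631 genes was 0.49 and 46.6% of genes lay wholly above in the VEGFA-LNC clones, against 18.8% of all tested genes. On chromosome 12 up to 76 Mb it was 0.51 over 447 genes (43.8%), on chromosome 10 from 88 Mb 0.54 over 239 genes (51.9%), and on chromosome 4 from 110 Mb, where *VEGFC* lies, 0.44 over 172 genes (36.6%). The median control difference in these 4 segments was 0.03 to 0.14, against 0.11 for all tested genes.

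Set against the mean of the 4 controls, the segments did not move in the same clones. In the segment of chromosome 16 the VEGFC-LNC clones lay at −0.42, −0.63 and −0.42 and the VEGFA-LNC clones at 0.05, −0.05 and −0.05. The segments of chromosome 12 (−0.44, −0.52 and −0.43 against 0.07, −0.06 and 0.01) and chromosome 4 (−0.53, −0.70 and −0.50 against −0.05, −0.19 and −0.10) had the same pattern, so that the VEGFC-LNC clones were the low ones. In the segment of chromosome 10 it was the VEGFA-LNC clones that were high, at 0.45, 0.34 and 0.37, with the VEGFC-LNC clones at −0.10, −0.19 and −0.17. In each of the 4 segments all 3 VEGFA-LNC clones had a higher median than all 3 VEGFC-LNC clones. Within chromosome 16 the third VEGFA-LNC clone changed level, from −0.48 in window 6 to 0.56 in window 9. In window 6 it overlapped the VEGFC-LNC clones, which were at −0.39, −0.68 and −0.56. The start of chromosome 19, up to 33 Mb, had the opposite sign, with a median of −0.14 over 414 genes and 18.8% of genes wholly below in the VEGFA-LNC clones, against 5.42% of all tested genes. DNA copy number was not measured, and its part in these medians was not tested.

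The 4 segments held 1489 of the 13333 tested genes (11.2%) and 13 of the 46 called genes (28.3%). The segments were set from the same differences that gave the calls, so nothing is read from these shares. Of the 13 genes, 12 were higher in the VEGFA-LNC clones and 1, *SLCO1B3*, was higher in the VEGFC-LNC clones. Among the 12 were *VEGFC*, *QPRT*, *TMTC1* and *PLEKHA5*, as well as *NDUFC1*, a subunit of respiratory complex I on chromosome 4. *NDUFC1* was at 24.6, 24.8 and 26.7 FPKM in the VEGFA-LNC clones and at 10.9, 10.7 and 12.9 FPKM in the VEGFC-LNC clones, with all 4 controls at 23.5 to 26.9 FPKM (difference 1.14, FDR 0.0415). The difference of *VEGFC* was larger than the median of its segment, and 8 of the 172 genes there had a larger one. Outside the 4 segments the median difference of all genes was 0.11.

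**Figure D2:**
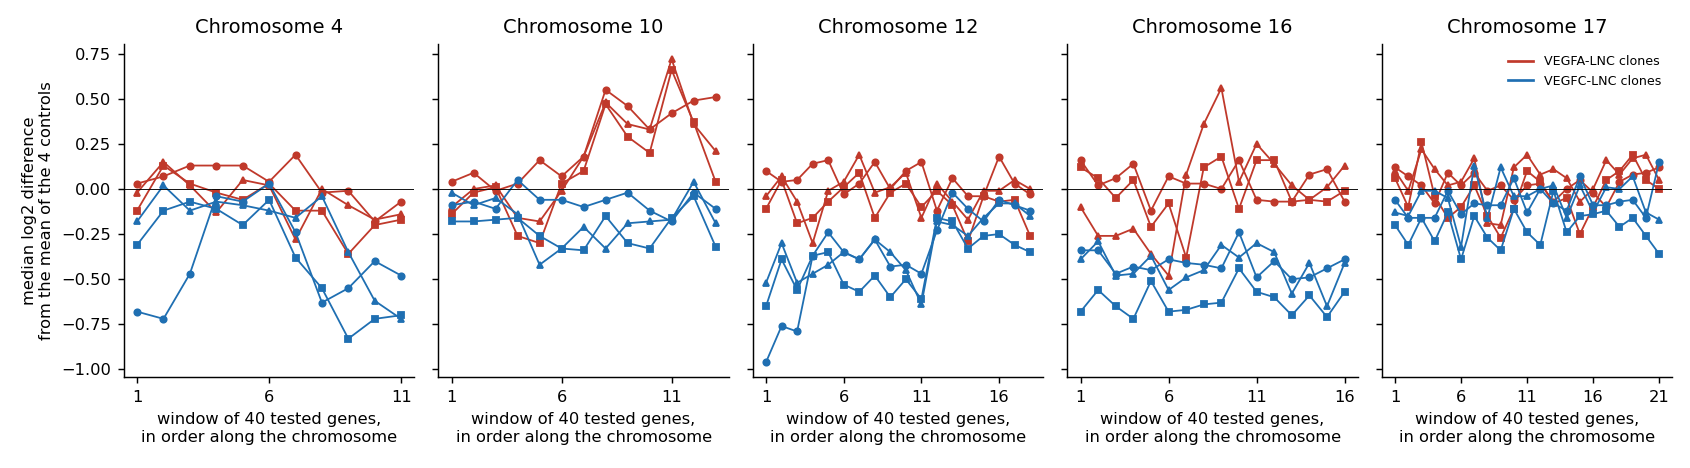
Median log2 difference of each clone from the mean of the 4 controls, in windows of 40 tested genes in their order along chromosomes 4, 10, 12 and 16, with chromosome 17 as a chromosome without such a window. The VEGFC-LNC clones lie below the VEGFA-LNC clones along most of chromosome 16, over the first part of chromosome 12 and at the end of chromosome 4, and the VEGFA-LNC clones lie above the controls at the end of chromosome 10.

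The interferon-stimulated genes, which cells switch on in response to interferons and which limit viral replication, were higher in the VEGFA-LNC clones in 57 of 58 tested members, with a median difference of 0.79, or 1.24 without the first VEGFA-LNC clone and 0.41 between the controls. None of them was called. With the block, which called 1.31% of all tested genes higher in the VEGFA-LNC clones, 3 were called (*IFIT2*, *DDX60* and *LY6E*). Without the first VEGFA-LNC clone 15 were called, against 409 of all 13333 tested genes. Of the 58 members, 8 differed without overlap (13.8%, under the 18.8% of all tested genes). The clones of a set did not lie together. Relative to the mean of the 6 clones, the list lay at −0.51, 0.88 and 0.77 in the VEGFA-LNC clones and at −0.76, −0.63 and 0.17 in the VEGFC-LNC clones. *IFIT3*, which curbs viral replication, was at 32.4, 127 and 92.9 FPKM in the VEGFA-LNC clones and at 14.4, 14.9 and 24.7 FPKM in the VEGFC-LNC clones (difference 2.05, SE 0.51, FDR 0.123 by limma), with all 4 controls at 9.66 to 11.2 FPKM. *IFIT2*, its neighbour on chromosome 10, was at 17.6, 59.8 and 43.9 FPKM against 5.65, 7.41 and 10.9 FPKM (difference 2.21, FDR 0.0936, with the block 0.0358). *MX2* reached 19.96 and 13.05 FPKM in the second and the third VEGFA-LNC clones and was at 0.639 FPKM in the first. Of the 58 genes, 7 lay in the 4 segments, *IFIT2*, *IFIT3* and *DDX60* among them, and the median of the others was 0.70.

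Many interferon-stimulated genes share a promoter element, the interferon-stimulated response element. The letters GAAANNGAAA, or TTTCNNTTTC on the other strand, were in 29 of the 46 promoters (63.0%) of the list that RefSeq sequences of GRCh38.p14 gave, from 250 bases before to 50 after the start, and in 3.65% of all 27305 promoters. The first match is shown for the 4 members of the list with the largest differences among those that hold it, to show the letters that were counted, with the element in capitals and in the direction of transcription. *IFIT1* is shown from chr10:89392499-89392524, *IFIT3* from chr10:89327833-89327858 and *IFI44L* from chr1:78620276-78620301, all on the plus strand, and *IFI6* from chr1:27672331-27672356 on the minus strand.
IFIT1: agctttagTTTCACTTTCccctttcg
IFIT3: ccgttaggTTTCATTTTCctcctccc
IFI6: agagagggGAAAATGAAActctgcag
IFI44L: ctagtgagGAAAAAGAAAgttagtgg
A match of letters does not show that a factor was bound in these cells.

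All 18 genes of antigen presentation by MHC class I were higher in the VEGFA-LNC clones on average, with a median of 0.37, or 0.97 without the first VEGFA-LNC clone and 0.17 between the controls, but none differed without overlap and none was called. *HLA-B*, which shares reads with other HLA genes, was at 15.8, 194 and 121 FPKM against 25.9, 45.7 and 54.1 FPKM, so that the first VEGFA-LNC clone was the lowest of the 6. Of 31 tested targets of NF-kB and inflammatory cytokines, 28 were higher in the VEGFA-LNC clones, with a median of 0.96, or 1.61 without the first VEGFA-LNC clone. None was called, *TNFAIP3* was called with the block (1.31% of all tested genes were called higher with it), and 10 (32.3%) lay wholly above, against 18.8% of all tested genes. The controls differed more than the clones in this list, with a median of 2.26. *TNFAIP3*, which limits NF-kB signalling, was at 3.42, 2.36 and 6.20 FPKM against 0.820, 0.335 and 0.951 FPKM in the clones and at 12.8 and 12.8 FPKM against 0.855 and 0.795 FPKM in the controls. The chemokine *CXCL1* was at 0.347, 2.61 and 13.5 FPKM against 0.115, 0.093 and 0 FPKM (difference 3.98, FDR 0.152).

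Targets of p53 were higher in the VEGFA-LNC clones in 26 of 28 genes, with a median of 0.65 in the clones and 1.10 in the controls, and 9 (32.1%) lay wholly above, against 18.8% of all tested genes. None was called, and with the block, which called 1.31% of all tested genes higher, the growth arrest genes *GADD45A* (difference 1.12) and *CDKN1A* (1.07) were. *FDXR*, a mitochondrial reductase, was at 44.6, 52.9 and 68.0 FPKM against 26.5, 12.4 and 27.8 FPKM (difference 1.37, FDR 0.121). The list of hypoxia and glycolysis genes had a median of 0.39, or 0.33 in the controls, and 13 of 34 genes (38.2%) lay wholly above, against 18.8% of all tested genes. Of these 34 genes, 9 lay in the 4 segments, and among the other 25 the median was 0.31 and 5 did not overlap, against 15.4% of all genes outside the segments. *SLC2A3*, the glucose transporter GLUT3 on chromosome 12, was at 20.1, 58.8 and 40.6 FPKM against 10.6, 19.1 and 12.4 FPKM (difference 1.41, FDR 0.16, with the block 0.0439), and the glycolytic enzyme *PGAM1* was also called with the block. Of the 32 immediate-early genes 27 were higher in the VEGFA-LNC clones, with a median of 0.31, or 0.59 without the first VEGFA-LNC clone, and the controls differed by a median of 0.66. None of them was called, and *IER5* was called with the block (difference 0.84).

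Small nucleolar RNAs, which guide the chemical modification of ribosomal RNA, lay the other way. Of 99 tested small nucleolar and Cajal body RNAs, 76 were higher in the VEGFC-LNC clones, with a median difference of −0.48, or −0.17 without the first VEGFA-LNC clone and −0.18 between the controls, and 20 (20.2%) lay wholly below in the VEGFA-LNC clones, against 5.42% of all tested genes. None was called without the block and 6 were called with it, all higher in the VEGFC-LNC clones, as were 0.353% of all tested genes. *SNORD76* was at 7.56, 4.07 and 7.91 FPKM against 16.2, 12.8 and 25.9 FPKM (difference −1.47, FDR 0.113, with the block 0.0353), and the controls had the same order. The rows are of short RNAs within introns of host genes, so reads of the host can enter them, and short rows rest on few reads. *SNHG3*, a host gene that codes for no protein, was at 5.11, 2.67 and 3.58 FPKM against 13.5, 8.47 and 7.10 FPKM (difference −1.33, FDR 0.12, with the block 0.0489).

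The row of *MIR126* had the same order. miR-126 is an abundant miRNA of endothelial cells that favours VEGF signalling, and its hairpin lies within the gene *EGFL7*. The row, NR_029695 on chromosome 9 from 139565054 to 139565138 in hg19, was within the span of 4 coding transcripts of *EGFL7* and in an exon of none of them. The mature sequences are shown because the arms are what the hairpin gives rise to, with the seed, bases 2 to 8, in capitals (RefSeq, GRCh38.p14, chr9:136670653-136670674 and chr9:136670616-136670636, plus strand).
hsa-miR-126-3p: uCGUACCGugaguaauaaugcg
hsa-miR-126-5p: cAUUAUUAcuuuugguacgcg
*MIR126* was at 2.40, 4.52 and 6.85 FPKM in the VEGFA-LNC clones and at 19.1, 38.0 and 47.7 FPKM in the VEGFC-LNC clones, a difference of −2.92 (SE 0.46, FDR 0.0704 by limma). With the block the FDR was 0.00611, and the controls had the same order, with 1.37 and 5.80 FPKM against 35.1 and 37.4 FPKM. The row rests on 3 to 10 reads in the VEGFA-LNC clones and 27 to 59 reads in the VEGFC-LNC clones. Libraries of fragmented total RNA are not made to capture mature miRNAs. Reads of the precursor and intronic reads of *EGFL7* cannot be told apart in this row. *EGFL7* itself was at 109, 228 and 181 FPKM against 165, 191 and 250 FPKM in the clones (difference −0.27, FDR 0.719). The controls of *EGFL7* were at 83.1 and 88.03 FPKM in the VEGFA-LNC set and at 240 and 230 FPKM in the VEGFC-LNC set. This is the order of the *MIR126* controls, with a control difference of −1.46 for *EGFL7* and −3.63 for *MIR126*. The part of host reads in the *MIR126* row was not tested.

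Cell cycle genes set the first clone of both sets apart from the others. The 42 tested genes of mitosis lay at 1.72 and 1.20 relative to the mean of the clones in the first clone of the 2 sets, and at −1.49 and −0.82 in the other VEGFA-LNC clones and −0.85 and 0.28 in the other VEGFC-LNC clones. Their median difference was −0.37, or −1.29 without the first VEGFA-LNC clone and −1.36 between the controls, and 39 of 42 were higher in the VEGFC-LNC clones. None was called and none differed without overlap, against 0.345% and 24.2% of all tested genes. The kinase *CDK1* was at 38.4, 4.67 and 6.20 FPKM against 29.6, 7.16 and 10.9 FPKM, and *MKI67* at 21.1, 1.33 and 2.78 FPKM against 11.0, 2.59 and 8.55 FPKM. Replication-dependent histones (64 tested, median −0.48, controls −2.17) and genes of DNA replication (42 tested, median −0.10, controls −1.11) were also high in the first clone of both sets. The part of proliferation in the lists above was not tested.

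The list of endothelial identity did not separate the deletions. Its 22 tested members had a median of −0.12, or 0.32 without the first VEGFA-LNC clone. Of these, 10 were higher in the VEGFA-LNC clones, against 65.6% of all tested genes. In 1 gene (4.55%) the VEGFA-LNC clones lay wholly above, against 18.8% of all tested genes. None was called, against 0.345% of all tested genes. The largest difference was that of *ROBO4*, an endothelial guidance receptor, at 9.97, 47.9 and 25.7 FPKM against 43.1, 61.6 and 80.1 FPKM (difference −1.37, FDR 0.264). Of 8 leukocyte markers 2 were tested, and *CD68* was called. *CD68*, a lysosomal protein of macrophages that other cells also make, was at 44.8, 35.4 and 37.3 FPKM against 16.9, 17.6 and 17.4 FPKM (difference 1.17, FDR 0.0406), and in the controls at 50.2 and 45.9 FPKM against 25.8 and 25.3 FPKM. The summed level of the 8 markers reached 45.2 FPKM in the VEGFA-LNC clones and 18.4 FPKM in the VEGFC-LNC clones at most, *MS4A1* was at 0 in every clone, and the other leukocyte markers apart from *CD68* and *LYZ* did not exceed 0.14 FPKM. Of the fibroblast and smooth muscle markers, *ACTA2* was at 8.11, 40.7 and 59.8 FPKM against 1.21, 4.46 and 19.02 FPKM (difference 2.49, FDR 0.303, with the block 0.0331), and the others did not exceed 0.499 FPKM. In bulk libraries a shift in the number of cells of a kind and a shift in RNA per cell cannot be told apart.

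The signalling lists held no called gene, which is near the background of 0.345% of all tested genes. No gene was called in the lists of the TGF-beta and BMP pathway (40 tested, median 0.01), the Notch pathway (19, 0.18), the FGF pathway and Sprouty genes (17, 0.17), the cytokine receptors of JAK-STAT signalling (26, 0.18), integrins (17, 0.17) or basement membrane and matrix (37, 0.26). *IL7R*, the receptor of interleukin 7, was at 0.463, 0.274 and 0.198 FPKM in the VEGFA-LNC clones and at 4.83, 1.69 and 2.96 FPKM in the VEGFC-LNC clones (difference −2.92, SE 0.43, FDR 0.0638, with the block 0.0252). Its controls had the opposite order, at 13.4 and 12.7 FPKM in the VEGFA-LNC set and 1.98 and 2.15 FPKM in the VEGFC-LNC set. *INHBE*, a subunit of activin E, was at 0.109, 0.022 and 0 FPKM against 1.78, 0.528 and 0.603 FPKM (difference −2.78, FDR 0.0848, with the block 0.0331). *SPRY1*, which restrains receptor tyrosine kinase signalling, was at 1.12, 0.462 and 0.759 FPKM against 0.152, 0 and 0.189 FPKM (difference 2.11, FDR 0.116, with the block 0.0499). *PXDN*, a peroxidase that crosslinks collagen IV, had a difference of 5.06 and a wide spread, with 0.335, 8.57 and 10.5 FPKM against 0.007, 0 and 0 FPKM (FDR 0.106, or 0.00111 without that clone). With the block *TNC*, *TIMP2*, *IL2RG* and *SOCS3* were also called higher in the VEGFA-LNC clones, and *COL4A2* higher in the VEGFC-LNC clones. Of all tested genes the block called 1.31% and 0.353% in these directions. The gelatinase *MMP2*, on chromosome 16, was at 35.6, 49.8 and 38.8 FPKM against 102, 84.8 and 150 FPKM (difference −1.41, FDR 0.0818).

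Lists of other processes stayed near the median of all genes or spread within the groups. The lists of *ATF4* targets (32 tested, median −0.16), NRF2 targets (26, 0.06), xenobiotic metabolism (10, 0.66), cholesterol and fatty acid synthesis (32, −0.18), the circadian clock (17, 0.25), matrix proteases (23, 0.18), MHC class II (7, 0.74), lung epithelial markers (4, 0.65), metallothioneins (3, −0.83), HOX genes (23, −0.02) and protocadherins (29, −0.13) held no called gene, and with the block *DHCR7*, an enzyme of cholesterol synthesis, was called higher in the VEGFC-LNC clones. Protocadherins were low in the first VEGFA-LNC clone, at −1.58 relative to the mean of the clones against 0.70 and 0.69 in the others of its set. Over all tested genes 0.345% were called, and with the block 0.353% were called higher in the VEGFC-LNC clones. Of 356 zinc finger genes (median 0.04) 1 was called, *ZNF613*, which had 63 reads against 0 and was at least 19.7-fold higher in the VEGFA-LNC clones. Of 12 tested cornified envelope genes (median 0.39) 1 was called, *SPRR2B*, with 12 reads against 0 (at least 3.76-fold higher). *SPRR2B* shares sequence with its paralogs, so that its reads can be split between them. Of 142 long noncoding RNAs named LINC (median −0.02), 4 were called, 3 of them higher in the VEGFA-LNC clones (*LINC01324*, *LINC02154* and *LINC00648*). *LINC02154* also differed between the controls, by 4.08.

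Some genes that the study's text names did not pass the test between the clones. *MXI1*, an antagonist of *MYC*, was at 6.88, 11.4 and 10.8 FPKM against 3.64, 6.09 and 4.68 FPKM (difference 0.99, FDR 0.146). *NOTCH4*, a receptor of endothelial cells, had the reverse order, at 2.90, 5.29 and 5.24 FPKM against 7.28, 9.83 and 8.09 FPKM (difference −0.93, FDR 0.162). The haem oxygenase *HMOX1*, which degrades haem, was at 13.8, 49.7 and 33.5 FPKM against 65.8, 56.3 and 75.9 FPKM in the clones (difference −1.20, FDR 0.231), and its controls had the opposite order, at 140 and 146 FPKM against 11.4 and 11.9 FPKM. The angiopoietin-like factor *ANGPTL4* (14.9 to 47.3 FPKM against 11.9 to 29.8 FPKM) overlapped between the clones. The genes *CLDN1*, *NDUFC1*, *MIR126*, *EGFL7*, *SNHG3*, *TNFAIP3*, *CDK1*, *MKI67*, *AGA*, *SPCS3*, *FAM133A* and those called only with the block were named after their values were seen.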

How the data were processed

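RNA-Seq was of 10 libraries, single-end, made with a directional kit. Per the labels and the study's methods, reads were trimmed with Trim Galore 0.4.4 and aligned to hg19 with STAR 2.5.4b. The authors deposited FPKM values for RefSeq transcripts, and how this table was counted is not given in the sources used here. The row with the highest mean FPKM was taken for each of 27945 symbols, and 42 rows that name no gene were left out. Genes with at least 1 CPM (reads scaled to the library total) in 2 of the 10 libraries were tested (13333, of which 342 were under that minimum within the 6 clones). FPKM times length gave whole reads, within 0.2 reads, for at least 99.99% of values. Intervals and floors from reads cover counting error only, and the depth of 6743966 to 24197616 reads limits genes at low levels.

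Differences were tested with limma 3.58.1 in R 4.3.3 on log2(FPKM + 0.1), with a mean-variance trend and Benjamini-Hochberg adjustment over all tested genes, in the 6 clones (4 residual and 2.9 prior degrees of freedom). The difference beyond the controls was tested in a fit of the 4 groups. *VEGFA* and *VEGFC* also had an exact permutation test over 20 splits. The scripts were tested on simulated data. Deviations of clones with the same number from their group means correlated at 0.55, 0.41 and 0.22, so that the number, which comes from the labels, was taken to pair the clones. Other pairs ranged from −0.54 to 0.26, and the third pair lay within that range.

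The members and lists were chosen with earlier results of these data known. Named genes were the VEGF list, the 15 called genes with the largest difference in each direction and a mean of at least 1 FPKM, the members of each list with the largest differences, and further genes, most of which the study's text names. Not all genes that the rule gives are described. Alternatives changed the pseudocount, the filter, the scaling, the model, the row per symbol and the libraries used. Leaving out the first clone of both sets, leaving out or averaging controls, and the chromosome segments were chosen after seeing the data. Motifs were counted in RefSeq promoters of GRCh38.p14, and no coordinates were converted between builds.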

Additional observations from a re-analysis of the deposited data

Results flagged for a closer look

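The difference between the clones departed from that between the controls in several genes named above (limma, FDR under 0.05 over all tested genes). The value is the log2 difference between the clones minus that between the controls. It was below 0 for *LBH* (−5.73, FDR 0.00227), *SLCO1B3* (−6.30, FDR 0.00325), *IL7R* (−5.52, FDR 0.00596), *LINC01419* (−5.86, FDR 0.00849), *HMOX1* (−4.81, FDR 0.012), *SUCNR1* (−3.03, FDR 0.0182), *EDDM13* (−1.65, FDR 0.019), *MMP2* (−2.06, FDR 0.0256) and *ADAMTS10* (−1.65, FDR 0.0381). The controls had the opposite order to the clones in *LBH*, *SLCO1B3*, *IL7R*, *LINC01419*, *HMOX1*, *SUCNR1* and *MMP2*, and the same order in *EDDM13* and *ADAMTS10*.

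The value was above 0 for *MDGA2* (4.30, FDR 0.004), *LOC100506258* (4.35, FDR 0.00412), *SGCZ* (4.79, FDR 0.00412), *SPRR2B* (2.65, FDR 0.00849), *LINC01324* (4.81, FDR 0.012), *CT55* (4.29, FDR 0.0139), *LINC00648* (3.71, FDR 0.0166), *ZNF613* (2.80, FDR 0.017), *CLIC2* (3.71, FDR 0.0182), *TMEM132D-AS1* (4.95, FDR 0.0182), *GNAI1* (3.5, FDR 0.023), *FAM19A2* (2.49, FDR 0.00774), *TMTC1* (3.11, FDR 0.0272), *NDUFC1* (1.04, FDR 0.0307) and *QPRT* (2.55, FDR 0.0396).

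These calls rest on the closeness of the 2 controls of a set. No gene passed when each pair of controls was averaged to a single value (689 genes at an unadjusted p under 0.05 by limma).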

How the results depend on the processing

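The number of genes called between the clones (46) was 222 with the clone number as a block, 994 in a fit of all 4 groups, 446 without the first clone of both sets, 22 with no filter, 8 among genes with a mean of at least 1 FPKM in the clones and 1 with limma-voom. It ranged from 5 to 409 when a single clone was left out, where the fit pools the spread of the clones that remain. The other 6 alternatives gave 32 to 67. The block changed the calls of the genes given with a blocked value in the report.

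*VEGFC* stayed higher in the VEGFA-LNC clones under every alternative tried. Its difference was 1.17 with no filter, with the higher minimum and with limma-voom (FDR 0.0596, 0.064 and 0.0902), 1.03 with median of ratios (FDR 0.0593) and 1.04 centred on the library median (FDR 0.0594). It ranged from 1.13 to 1.23 when a single clone was left out, with an FDR up to 0.201. *VEGFA* was below 0 and missed the threshold under every alternative, from −0.60 to −0.12.

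The number of genes that went beyond the controls (194) was 1363 without the first clone of both sets and 0 with averaged control pairs, and it ranged from 5 to 694 when a single library was left out.

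Differences that missed the threshold changed sign in 20 of 1483 values for named genes. They were *KRT7* (−0.07 with median of ratios and −0.06 centred) and *KDR* (0.44 with limma-voom), and without the first clone of both sets *FLT1* (0.34) and *PGF* (0.19). When each clone was left out in turn, the range crossed 0 for *CDH5* (−0.92 to 0.31), *CDK1* (−1.28 to 0.23), *EGFL7* (−0.51 to 0.03), *FLT1* (−0.52 to 0.28), *KDR* (−1.16 to 0.78), *KRT7* (−0.23 to 0.45), *MKI67* (−1.65 to 0.30), *PECAM1* (−0.29 to 1.46) and *PGF* (−0.84 to 0.53).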
